A study of Homo sapiens with 3 samples.

Results

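RAB GTPases are small membrane-bound switches that direct vesicle traffic, and 57 RAB genes were followed here through knockdown of the long noncoding RNA DANCR in UM-UC-3, a human bladder cancer cell line. The members were all genes with a symbol of RAB, digits and an optional final letter that had a probe set naming that gene alone, which gave 138 of 41091 single-gene probe sets and 57 of 19775 genes. The groups, each with a single Affymetrix array, received the control siRNA, or DANCR siRNA1, or DANCR siRNA2, all at 75 nM with the same lipid reagent and for 48 h, so 3 arrays were compared. The values are probe set intensities on a linear scale. No replicate check was possible, so every difference below is a size between single arrays and carries no p-value, and the effect of an siRNA cannot be told apart from the spread between samples.

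The siRNA sequences are shown because the groups differ by them, with the 19 bases before the closing TT in capitals, 5′ to 3′ as the labels list them.
Control siRNA: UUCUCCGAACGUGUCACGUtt
DANCR siRNA1: GCGUACUAACUUGUAGCAAtt
DANCR siRNA2: GAGCUAGAGCAGUGACAAUtt

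A RAB protein carries a lipid anchor and sits on a membrane in its GTP-bound form, where it recruits effectors such as motor adaptors, tethers and coat regulators. Exchange factors (GEFs) load it with GTP, GTPase-activating proteins (GAPs) return it to the GDP-bound form, and the GDP dissociation inhibitors carry it back through the cytosol. Each RAB marks a preferred step. RAB5 proteins serve early endosomes, RAB7A late endosomes, RAB11 proteins recycling endosomes, RAB1 and RAB2 proteins traffic between the endoplasmic reticulum and the Golgi, and RAB8A and RAB8B the delivery of Golgi and recycling cargo to the cell surface and to the primary cilium.

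The arrays had mean intensities of 95.3 to 96.5. The only measured DANCR probe set read 671 on the control array, 116 on the siRNA1 array and 126 on the siRNA2 array. The 3′/5′ ratio of ACTB, a readout of RNA and labelling quality, was 11.9, 11.8 and 14.4 in that order, and that of GAPDH was 1.25, 1.29 and 1.35. Of the markers checked against the labelled bladder epithelial origin, keratin 18 (KRT18, 1315 in the control) and vimentin (VIM, 5322) were bright, whereas KRT5, KRT19, EPCAM, CDH1, UPK1A, UPK2 and UPK3A lay below an intensity of 10.5 on all 3 arrays. KRT18 was at 54.1% of the control with siRNA1 and 77.8% with siRNA2. KRT8 was dim and level (21.5, 21.5 and 21.2), and the urothelial factor GATA3 was at 20.2, 20.2 and 35.2 on the 1 of its 3 probe sets that was measured. The part of these differences in the results below was not tested. The intensity of 10.5 is the 50th percentile of all intensities and is called the floor here: anything dimmer was set to it before ratios were taken, and a gene was measured if any array exceeded it.

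By this rule 45 of the 57 RAB genes were measured, on 101 probe sets. The other 12 were RAB3C, RAB6A, RAB7B, RAB25, RAB30, RAB33A, RAB36, RAB37, RAB38, RAB39A, RAB40A and RAB42, for which every single-gene probe set was at or below the floor. RAB25, which is known from epithelial cells, was at 3.45 on all 3 arrays. For RAB6A this says little, since 4 of the 11 probe sets that name a RAB together with another gene name RAB6A with RAB6D, and the brightest of these was at 584 in the control. These 11 probe sets were not used for gene values. Their log2 ratios ran from -0.65 to 0.71, and the 2 that name RAB34 with NARR both gave -0.65 with siRNA1 and 0.18 and 0.22 with siRNA2.

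As a family the RAB genes had no common direction. The brightest probe set of each gene gave median log2 ratios of 0.00 (siRNA1) and 0.00 (siRNA2), the same as the medians of all 12447 measured genes (0.00 and 0.00). With siRNA1, 21 RAB genes were higher than the control (46.7%, against 42.2% of all measured genes), 17 were lower (37.8%, against 39.5%) and 7 gave a ratio of exactly 0. With siRNA2 the numbers were 23 (51.1%, against 45.0%), 18 (40.0%, against 36.2%) and 4. Higher with both siRNAs were 16 of 45 (35.6%, against 29.1% of all measured genes), and lower with both were 11 of 45 (24.4%, against 23.8%). The control array enters both ratios, so agreement between them is not independent. The plot of all measured RAB genes by route shows most pairs of points between the 2-fold lines.

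**Figure D1:**
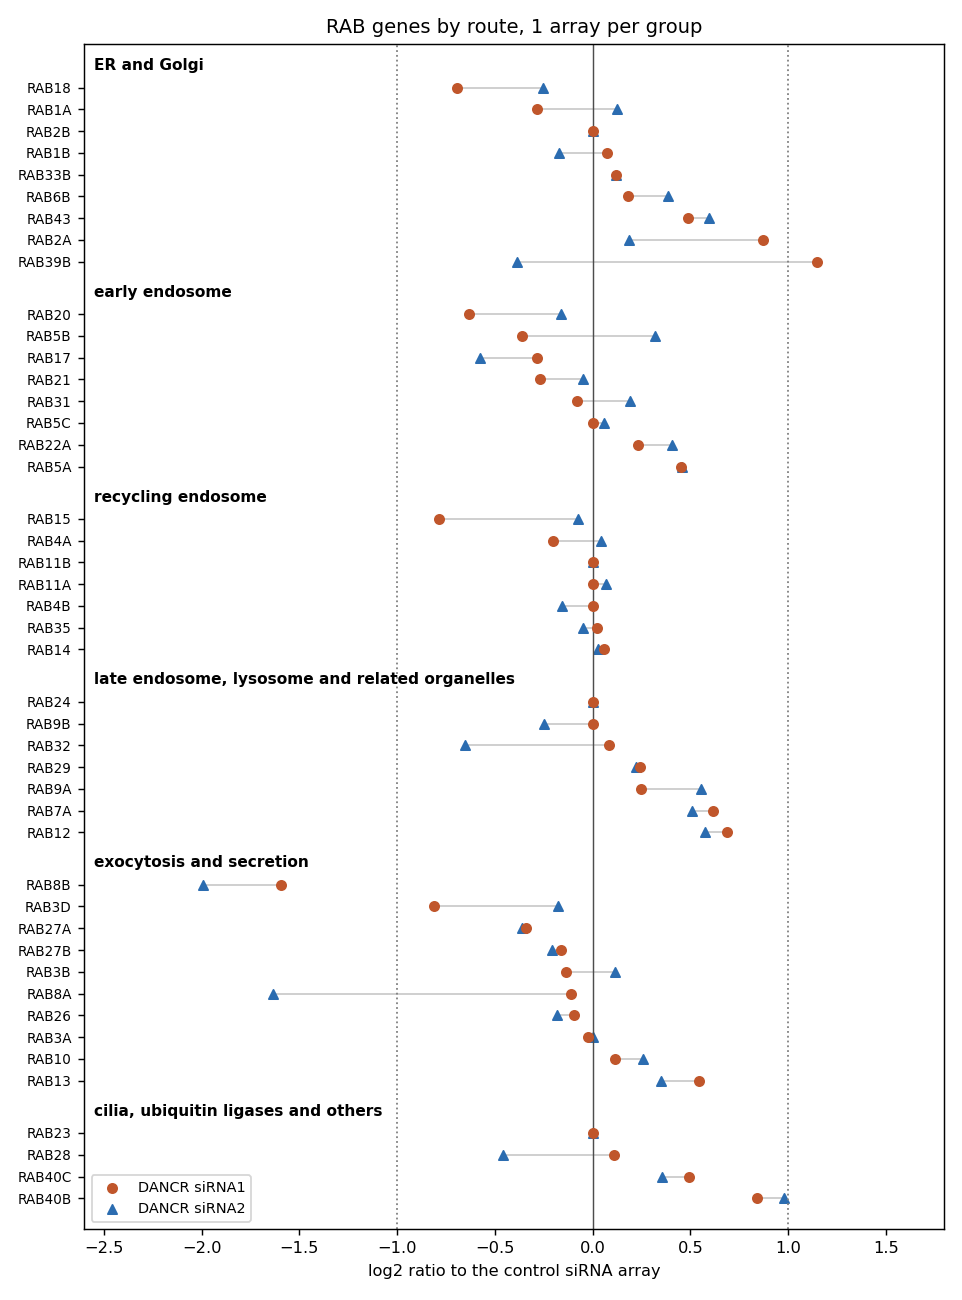
Log2 ratio to the control siRNA array (horizontal axis) of the 45 measured RAB genes, grouped by the route each serves, with circles for DANCR siRNA1 and triangles for DANCR siRNA2, 1 array each and no error bars because no replicates exist. Dotted lines mark 2-fold: RAB8B lies beyond the lower line with both siRNAs (-1.60 and -2.00), RAB8A with siRNA2 alone (-1.64) and RAB39B beyond the upper line with siRNA1 (1.15).

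RAB8B was the member lower by at least 2-fold with both siRNAs, 1 of 45 (2.22%), where 0.281% of all measured genes met that rule. Its brightest probe set was at 223 on the control array, 73.7 on the siRNA1 array and 55.9 on the siRNA2 array, which is 33.1% and 25.1% of the control. Both siRNA arrays were thus well below the control array and near each other, 1.32-fold apart. The log2 ratios were -1.60 and -2.00, or 3.02-fold and 3.99-fold lower. RAB8B ranked 32nd lowest of 12447 measured genes with siRNA1 and 13th with siRNA2, and 6th by the smaller of its differences. In RNA from a whole culture, fewer cells that express a gene and less of its RNA per cell cannot be told apart.

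A further RAB8B probe set, dim in the control, stood in the same order. It was at 22.0 on the control array, 12.0 on the siRNA1 array and 8.21 on the siRNA2 array, the last below the floor, so its ratios were -0.88 and at least 2.09-fold lower. The remaining RAB8B probe set was at 2.81, 2.81 and 2.41, below the floor on all arrays, and gave no ratio.

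RAB8A, the close paralog of RAB8B, was low with siRNA2 alone. Its single probe set was at 266 on the control array, 247 on the siRNA1 array and 85.5 on the siRNA2 array. The control and siRNA1 arrays were 1.08-fold apart, and the siRNA2 array was 3.11-fold below the control (log2 ratio -1.64) and 2.88-fold below siRNA1. It ranked 29th lowest of all measured genes with siRNA2. With that siRNA 2 of 45 RAB genes, RAB8A and RAB8B, were at least 2-fold lower (4.44%, against 1.21% of all measured genes), and with siRNA1 RAB8B alone was (2.22%, against 1.75%). With siRNA2 0 of 45 were at least 2-fold higher (against 2.15%), and with both siRNAs 0 of 45 (against 0.715%). That array also had the highest ACTB and GAPDH 3′/5′ ratios (14.4 and 1.35), whose part in this value was not tested. No other RAB8A probe set was at hand to set beside it.

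RAB10 and RAB13, the nearest relatives of RAB8A and RAB8B in sequence and in their role in surface delivery, were not lower to any such extent. RAB10, which serves polarised and insulin-stimulated exocytosis, was at 754 on the control array, 817 on the siRNA1 array and 900 on the siRNA2 array. Its other probe set was at 318, 316 and 407, log2 ratios of -0.01 and 0.36. RAB13, a RAB of tight junction traffic, was at 564, 824 and 720, log2 ratios of 0.55 and 0.35.

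**Figure D2:**
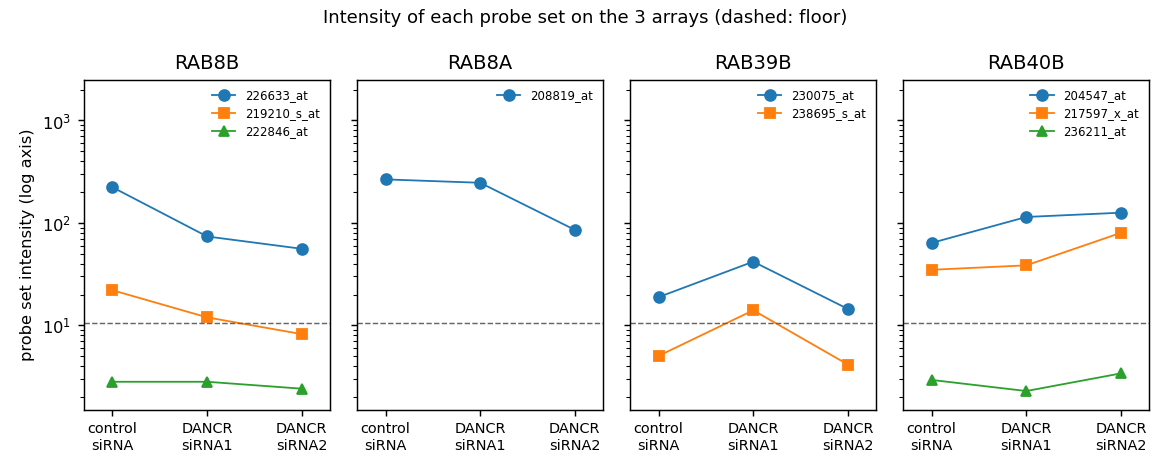
Intensity (log axis) of every single-gene probe set of RAB8B, RAB8A, RAB39B and RAB40B on the control siRNA, DANCR siRNA1 and DANCR siRNA2 arrays, 1 point per array, with the floor of 10.5 dashed. The bright RAB8B probe set is at 223, 73.7 and 55.9, RAB8A is low with siRNA2 alone (85.5), and both RAB39B probe sets are highest with siRNA1 (41.9 and 14.0).

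Because RAB8B and RAB8A were both low with siRNA2 and only RAB8B with siRNA1, their promoters are set side by side, each from 250 bases before to 50 bases after the start that RefSeq annotates on GRCh38.p14. Capitals mark matches on either strand to the CCAAT box, searched as the letters CCAAT, the GC box, searched as GGGCGG, the TATA box, searched as TATAAA, and the E-box, searched as CACGTG. The RAB8B window is chr15:63189356-63189655 and the RAB8A window chr19:16111639-16111938, both on the plus strand.
RAB8B: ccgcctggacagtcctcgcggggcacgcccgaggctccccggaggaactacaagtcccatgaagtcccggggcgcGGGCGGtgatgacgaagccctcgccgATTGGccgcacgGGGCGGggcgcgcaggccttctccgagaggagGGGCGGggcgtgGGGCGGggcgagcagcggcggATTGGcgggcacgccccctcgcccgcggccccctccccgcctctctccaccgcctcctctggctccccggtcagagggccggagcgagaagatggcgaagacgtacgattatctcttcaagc
RAB8A: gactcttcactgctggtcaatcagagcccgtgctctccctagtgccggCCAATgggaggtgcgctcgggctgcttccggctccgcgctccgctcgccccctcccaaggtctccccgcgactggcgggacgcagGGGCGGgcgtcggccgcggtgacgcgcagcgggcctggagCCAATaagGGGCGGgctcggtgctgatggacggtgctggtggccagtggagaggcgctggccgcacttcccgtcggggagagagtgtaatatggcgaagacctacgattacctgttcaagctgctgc
RAB8B held 2 CCAAT boxes and 4 GC boxes at 73.3% GC, and RAB8A held 2 and 2 at 68.3% GC. The matches did not overlap, and neither window held the letters of the TATA box or the E-box. Among all 35116 promoter windows of this length 34.6% held a CCAAT box, 45.0% a GC box, 11.5% a TATA box and 7.26% an E-box. Over the 64 windows of the 45 RAB genes that had one, the shares were 31.2%, 76.6%, 6.25% and 9.38%. These genes were drawn from all 57 RAB genes, measured or not, so they are not the set of 45 measured genes. A match describes letters in a window and is not evidence of a bound site.

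RAB8A and RAB8B belong to a group of 10 measured RABs of exocytosis and secretion. Of the 8 others, 6 were lower and 2 higher with siRNA1, and 4 were lower and 3 higher with siRNA2, with medians of -0.12 and -0.09. Of all measured genes 39.5% were lower with siRNA1 and 36.2% with siRNA2. RAB27A, which docks lysosome-related and secretory granules and multivesicular bodies at the plasma membrane, was at 114 on the control array, 89.8 on the siRNA1 array and 88.4 on the siRNA2 array. All 5 of its probe sets were lower with both siRNAs, by -0.30 to -0.51 with siRNA1 and -0.30 to -0.76 with siRNA2. Its paralog RAB27B was at 67.7, 60.5 and 58.7. The regulated-secretion RAB3D was at 33.5, 19.1 and 29.6, log2 ratios of -0.81 and -0.18. Its other probe set, near the floor at 13.4, 12.5 and 11.5, gave -0.09 and -0.21, so the low siRNA1 value rests on 1 probe set. RAB3A (20.2, 19.9 and 20.2), RAB3B (19.6, 17.9 and 21.2) and RAB26 (16.9, 15.8 and 14.9) lay close to the floor, where a ratio is compressed. The second RAB3B probe set was at 23.1, 12.4 and 16.9, ratios of -0.90 and -0.46, so its probe sets differ. The second RAB26 probe set gave -0.32 with both siRNAs.

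Between the endoplasmic reticulum and the Golgi, RAB39B was the member at least 2-fold higher with siRNA1, 1 of 45 (2.22%, against 1.86% of all measured genes). RAB39B, a Golgi-associated and autophagy-linked RAB, was at 18.9 on the control array, 41.9 on the siRNA1 array and 14.5 on the siRNA2 array. The siRNA1 array stood above both others, 2.22-fold over the control and 2.90-fold over siRNA2. Its other probe set, at 5.03, 14.0 and 4.14, exceeded the floor on the siRNA1 array alone and gave at least 1.33-fold. With the floor at the 70th percentile the ratio was 0.49, and the median over both probe sets was 0.78, so the call ended under both.

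RAB2A, which tethers vesicles at the Golgi, was at 354 on the control array, 649 on the siRNA1 array and 403 on the siRNA2 array on its brightest probe set. Of its 6 probe sets, 5 were higher with siRNA1 (0.19 to 0.87) and the exception gave -0.23. With siRNA2, 4 were higher and 2 lower, from -0.45 to 0.26. RAB18, a RAB of the endoplasmic reticulum and of lipid droplets, stood the other way. Its 3 bright probe sets were at 386, 297 and 196 in the control and at 238, 183 and 105 with siRNA1, log2 ratios of -0.70, -0.70 and -0.91. With siRNA2 the same 3 were at 324, 304 and 175, ratios of -0.26, 0.03 and -0.17. Its 3 remaining probe sets were at 30.4 or below in the control and gave -0.16, 0.25 and 0.00 with siRNA1. RAB18 was thus low on the siRNA1 array and near the control on the siRNA2 array.

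RAB1A, which starts traffic out of the endoplasmic reticulum and had a bright probe set, was at 1338, 1097 and 1458, and RAB1B at 282, 297 and 250. RAB43, a Golgi RAB, was at 20.8 in the control and 29.2 and 31.4 with the siRNAs. The probe set that names RAB43 together with ISY1-RAB43 was level at 20.2, 20.2 and 20.8. RAB6B was at 55.8, 63.2 and 72.8. RAB33B, a Golgi RAB, was near the floor at 14.6, 15.9 and 15.9. RAB2B was equal on all 3 arrays, at 75.2. In this group of 9 the medians were 0.12 and 0.12, and 4 genes were higher and 1 lower with both siRNAs, where 29.1% and 23.8% of all measured genes were.

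In the early endosome group of 8 genes, 5 were lower with siRNA1 (39.5% of all measured genes were) and 5 were higher with siRNA2 (45.0% of all measured genes were). RAB5A, which drives early endosome fusion, was at 492 on the control array, 674 on the siRNA1 array and 676 on the siRNA2 array, a log2 ratio of 0.45 and 0.46. Its other measured probe set was level at 30.5, 30.5 and 31.0. Of its paralogs, RAB5B was at 58.2, 45.3 and 72.7 and RAB5C at 86.9, 86.9 and 90.4. RAB20 was at 39.5, 25.5 and 35.4, low with siRNA1. RAB31, a RAB of endosomal and Golgi sorting, was at 654, 619 and 747. RAB21, which accompanies integrin endocytosis, was at 212, 176 and 205, a log2 ratio of -0.27 with siRNA1. Its second probe set, at 33.9, 21.9 and 30.5, gave -0.63 with siRNA1. A further one near the floor was level at 13.5, 13.5 and 13.6. RAB17, an epithelial RAB, was at 16.5, 13.5 and 11.0, near the floor.

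RAB22A, which serves early and recycling endosomes, showed how far probe sets of 1 gene can differ. Its brightest probe set was at 202 on the control array, 237 on the siRNA1 array and 267 on the siRNA2 array, and its second was at 145, 296 and 203. With siRNA1 these gave log2 ratios of 0.23 and 1.02, so that the 2-fold call depends on the probe set.

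Recycling endosome members were mostly level, with medians of 0.00 and 0.00 over 7 genes. RAB11A, the main recycling RAB, with the brightest probe set of the family, was at 1847 on the control array, 1847 on the siRNA1 array and 1937 on the siRNA2 array. RAB14 was at 302, 315 and 308, RAB35 at 141, 143 and 136, RAB4A at 56.2, 48.9 and 58.0, and RAB4B at 21.9, 21.9 and 19.6. For RAB4B this rests on 1 dim probe set. The probe sets that name RAB4B together with other genes gave 0.71, 0.52, 0.13 and -0.06 with siRNA2. RAB11B was equal on all arrays at 16.9. Among the single-gene values the exception was RAB15, an inhibitor of early endocytic traffic. It was at 105 on the control array, 61.0 on the siRNA1 array and 99.9 on the siRNA2 array on one probe set and at 68.3, 39.5 and 63.2 on the other, so both gave a lower value with siRNA1 (-0.78 and -0.79) and little with siRNA2 (-0.07 and -0.11).

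Late endosome and lysosome members were higher or level with siRNA1 in 7 of 7 genes, with 5 higher and 2 at exactly 0, and with siRNA2 4 were higher and 2 lower. The background shares with siRNA1 were 42.2% higher and 39.5% lower, and with siRNA2 45.0% and 36.2%, so a group of only 7 allows no firm reading. The medians were 0.24 and 0.22. RAB7A, which directs late endosomes to lysosomes, was at 306 on the control array, 469 on the siRNA1 array and 436 on the siRNA2 array on its brightest probe set and at 326, 441 and 403 on the next. Its 3 dimmer measured probe sets, all at 38.2 or below in the control, gave ratios between -0.05 and 0.00. RAB12, which serves transport from recycling endosomes to lysosomes, was at 237, 382 and 353, log2 ratios of 0.69 and 0.58. Its other probe sets gave 0.26 and 0.02 with siRNA1 and 0.26 and 0.03 with siRNA2. RAB9A, of late endosome to Golgi return, was at 202, 240 and 297, and RAB29, a RAB7-like protein tied to LRRK2, at 145, 172 and 169. RAB32, of melanosomes and mitochondria, was at 358, 380 and 228, low with siRNA2, but its other probe set was at 45.2, 47.6 and 44.7. RAB9B, the paralog of RAB9A, was at 21.5, 21.5 and 18.1. RAB24, linked to autophagy, was equal at 57.2.

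Among the remaining members, RAB40B ranked first among the RAB genes higher with both siRNAs when each was ordered by the smaller of its ratios, and both were short of 2-fold. RAB40B, which carries a SOCS box and joins a ubiquitin ligase, was at 63.8 on the control array, 114 on the siRNA1 array and 126 on the siRNA2 array, log2 ratios of 0.84 and 0.98. Its second measured probe set was at 34.9, 38.5 and 80.1, ratios of 0.14 and 1.20, so the siRNA1 value differs between the probe sets. RAB40C, a paralog, was at 48.1, 67.6 and 61.5, and its other probe set was level at 19.2, 19.2 and 18.9. RAB23, a regulator of Hedgehog signalling at the cilium, was at 215, 215 and 215, though its second probe set was at 67.7, 80.8 and 99.5. RAB28 was at 147, 159 and 108.

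**Figure D3:**
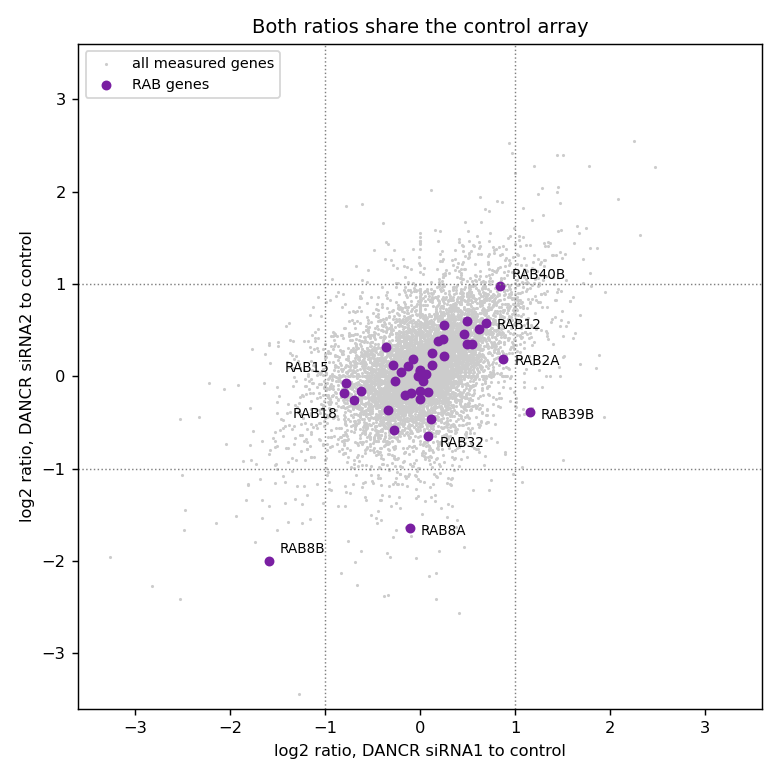
Log2 ratio of DANCR siRNA2 to control (vertical axis) against that of DANCR siRNA1 to control (horizontal axis), with 12447 measured genes in grey and the 45 measured RAB genes in purple, 1 array per group. Both ratios share the control array, dotted lines mark 2-fold, and RAB8B is the RAB gene in the lower left corner beyond both lines.

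At a smaller threshold of 1.5-fold the pattern was of separate members rather than a shift. With siRNA1, 5 of 45 RAB genes were lower (11.1%, against 6.03% of all measured genes) and 5 were higher (11.1%, against 7.13%). The lower ones were RAB8B, RAB3D, RAB15, RAB18 and RAB20, and the higher ones RAB39B, RAB2A, RAB40B, RAB12 and RAB7A. With siRNA2, 3 were lower (RAB8B, RAB8A and RAB32, 6.67%, against 4.28%) and 2 were higher (RAB40B and RAB43, 4.44%, against 8.74%). With both siRNAs RAB8B was lower by this amount (2.22%, against 1.29%) and RAB40B higher (2.22%, against 3.49%). In 31 of 45 RAB genes (68.9%) all 3 arrays lay within 1.5-fold of each other, against 75.2% of all measured genes.

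Between the siRNA arrays themselves, RAB39B and RAB8A were at least 2-fold higher with siRNA1 (2 of 45, 4.44%, against 1.51% of all measured genes), by 2.90-fold and 2.88-fold, and 0 of 45 were 2-fold lower (against 2.4%). At 1.5-fold RAB2A and RAB32 joined them (8.89%, against 5.21%), and RAB15, RAB3D and RAB5B were lower with siRNA1 (6.67%, against 8.56%). For RAB2A and RAB32 this rests on the brightest probe set, since their others gave log2 ratios of at most 0.32 and 0.09. The second RAB3D probe set gave 0.12. RAB40B reached 2-fold in this comparison on its second probe set, where the siRNA1 array was 2.08-fold below the siRNA2 array.

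Probe sets of the same gene give the only repeated reading on these arrays, though they share the RNA and the array and can detect different transcript forms. Of the measured RAB genes, 29 had 2 or more measured probe sets and 16 had 1. Within a gene the log2 ratios spanned 0.29 (siRNA1) and 0.31 (siRNA2) at the median gene, and at most 1.15 and 0.93. In 5 genes with siRNA1 and 8 with siRNA2 some probe sets were above and others below the control. Of the 101 measured RAB probe sets, 10 had equal values on all 3 arrays (9.90%, against 13.2% of all measured single-gene probe sets), which gives exact ratios of 0. Counted by probe set, 1 of the 101 was at least 2-fold lower with siRNA1 (RAB8B, 0.99%, against 1.48% of all measured single-gene probe sets) and 2 were higher (RAB22A and RAB39B, 1.98%, against 1.66%). With siRNA2, 3 were lower (RAB8A and both measured RAB8B probe sets, 2.97%, against 1.17%) and 1 was higher (RAB40B, 0.99%, against 1.96%). With both siRNAs 1 was lower (RAB8B, 0.99%, against 0.24%) and 0 were higher (against 0.585%). Between the siRNAs 2 were higher with siRNA1 (RAB8A and RAB39B, 1.98%, against 1.41%) and 1 was lower (RAB40B, 0.99%, against 2.09%). All measured probe sets of RAB8B, RAB27A and RAB15 were lower with both siRNAs, and the 3 bright RAB18 probe sets were lower with siRNA1. The probe sets of RAB22A, RAB40B and RAB12 also shared a direction, higher with both siRNAs, but differed in size.

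**Figure D4:**
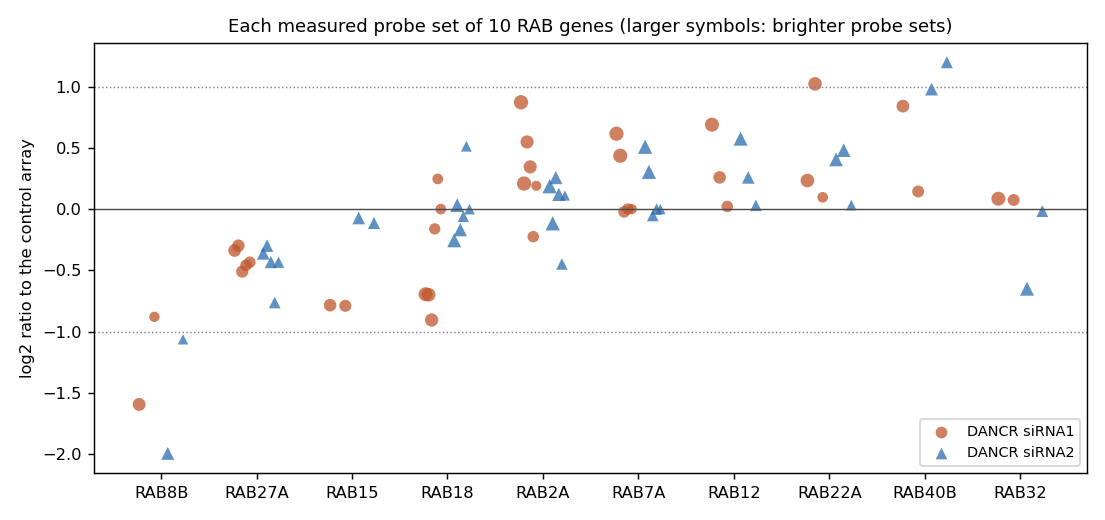
Log2 ratio to the control array (vertical axis) of each measured probe set of 10 RAB genes, circles for DANCR siRNA1 and triangles for DANCR siRNA2, with symbol size growing with mean intensity. The 5 RAB27A probe sets are all below 0 with both siRNAs, and the bright RAB18 probe sets lie at -0.70 to -0.91 with siRNA1.

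The proteins that load, unload and read RABs were taken from lists by function, with 107 of 125 listed genes measured. Of these, 1 was at least 2-fold higher with both siRNAs (against 0.715% of all measured genes) and 0 were 2-fold lower with both (against 0.281%). The medians were 0.00 with siRNA1 and 0.13 with siRNA2, against 0.00 and 0.00 over all measured genes. With siRNA2, 64 of the 107 were higher and 25 lower, against 45.0% and 36.2% of all measured genes. With siRNA1, 47 were higher and 44 lower, against 42.2% and 39.5% of all measured genes.

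The gene higher with both was BICD2, the dynein adaptor that binds RAB6 on Golgi vesicles. It was at 107 on the control array, 224 on the siRNA1 array and 216 on the siRNA2 array, and its other probe sets were at 83.1, 230 and 197 and at 43.9, 106 and 107. All 3 were at least 2-fold higher with both siRNAs, by 2.10- to 2.77-fold with siRNA1 and 2.03- to 2.43-fold with siRNA2. With quantile-normalised arrays its siRNA2 ratio was 0.96, just short of 2-fold.

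Other effectors were higher with both by less. RABEP2, an effector of RAB5 and RAB4, was at 49.3, 98.1 and 91.6, though its other probe sets gave 0.11 and -0.02 with siRNA1. FYCO1, the kinesin adaptor of RAB7, was at 30.9, 59.2 and 52.2, and its other probe set was level at 16.9. RILPL1, which binds RABs that LRRK2 has phosphorylated, was at 69.7, 125 and 117. Among the effectors lower with both were RAB11FIP2, an adaptor of RAB11 (240, 183 and 125), and ERC1 (130, 103 and 85.8). The 4 other ERC1 probe sets ran from -0.29 to 0.00 with siRNA1 and from -0.35 to 0.00 with siRNA2. RABEP1, a partner of RAB5, was lower with both on its brightest probe set (202, 165 and 106). The 4 other RABEP1 probe sets ran from -0.13 to 0.47 with siRNA1, 2 of them higher, and from -1.45 to 0.09 with siRNA2. The second RAB11FIP2 probe set gave -0.53 and -1.11. Of the 40 measured effectors, 19 were higher and 5 lower with both siRNAs, where 29.1% and 23.8% of all measured genes were.

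SYTL2, a synaptotagmin-like effector of RAB27A, was at 109 on the control array, 43.3 on the siRNA1 array and 124 on the siRNA2 array, and its second probe set was at 39.4, 13.7 and 41.9. It was the regulator or effector at least 2-fold lower with siRNA1, by 2.51-fold, 1 of 107 where 1.75% of all measured genes were. GOLGA2, the Golgi matrix protein GM130, was at 40.7, 47.6 and 83.4 on its brightest probe set and at 38.4, 39.1 and 47.2 on the next, so its 2.05-fold higher value with siRNA2 rests on 1 of 4 probe sets.

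Of the 12 listed RAB8 partners, 11 were measured, with medians of -0.22 and 0.00, and 0 were 2-fold from the control with either siRNA. MICALL1, which gathers RAB8A on recycling tubules, was at 454 on the control array, 228 on the siRNA1 array and 464 on the siRNA2 array, and its other probe set was at 227, 133 and 232. It was low with siRNA1, the array on which RAB8A was near the control. OCRL, an inositol phosphatase bound by RAB8A, was at 80.7, 53.2 and 86.0. OPTN, the autophagy and RAB8 adaptor optineurin, was at 125, 99.0 and 129, and its other probe set was equal on all arrays at 55.2. RAB3IP, the exchange factor Rabin8, was at 43.9, 37.5 and 42.9, and its second probe set at 26.8, 19.9 and 16.6. EHBP1 was at 123, 145 and 137.

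Of 28 measured exchange factors 0 were 2-fold from the control. Since 1.75% of all measured genes were 2-fold lower and 1.86% higher with siRNA1, and 1.21% and 2.15% with siRNA2, a count of 0 in lists as short as this one or that of the RAB8 partners says little. DENND5A, a GEF of RAB39 proteins, was at 176, 257 and 308, MON1B, part of the RAB7 exchange complex, at 56.9, 87.9 and 84.9, and RIN2, a GEF of RAB5, at 592, 778 and 910. DENND5B was at 89.3, 138 and 119, but 1 of its other probe sets gave -0.24 with siRNA1. Among those lower with both were RIN1 (65.8, 52.2 and 42.4) and DENND3 (48.1, 38.1 and 36.9). In all, 6 exchange factors were higher and 6 lower with both siRNAs, where 29.1% and 23.8% of all measured genes were. Of 31 measured GAPs, TBC1D9 was at least 2-fold higher with siRNA1. TBC1D9 was at 76.5 on the control array, 213 on the siRNA1 array and 145 on the siRNA2 array, while its other probe set was level at 13.5 and the median over both was 0.74 with siRNA1. RAB3GAP1, the catalytic subunit of the complex that acts on RAB3 and loads RAB18, was at 411, 661 and 566. Its further probe sets read higher too, by 0.40 and 0.78 with siRNA1 and by 0.54 and 0.74 with siRNA2. TBC1D12 (42.6, 68.7 and 63.2) and TBC1D4 (38.5, 55.2 and 59.3) were also higher with both. TBC1D22A was at 109, 155 and 174, though 1 of its other probe sets gave 0.00 and -0.51. TBC1D7 was lower with both, at 147, 106 and 118. Of the GAPs 10 were higher and 6 lower with both siRNAs, against the same shares of all measured genes as for the exchange factors.

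In the prenylation and recycling list of 6 measured genes, GDI2, the GDP dissociation inhibitor, was level at 1348, 1386 and 1359. RABGGTB, the catalytic subunit of the enzyme that attaches the lipid anchor, was at 695, 956 and 557, higher with siRNA1 and lower with siRNA2. CHML, the escort protein REP2 that presents RABs to that enzyme, went the other way, at 200, 124 and 324. The RAB kinase LRRK1 was at 59.1, 55.2 and 55.2. LRRK2 was at 5.11, 12.5 and 7.23, above the floor on the siRNA1 array alone. It was thus at least 1.18-fold higher with siRNA1, and its siRNA2 ratio of 0 is set by the floor.

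**Figure D5:**
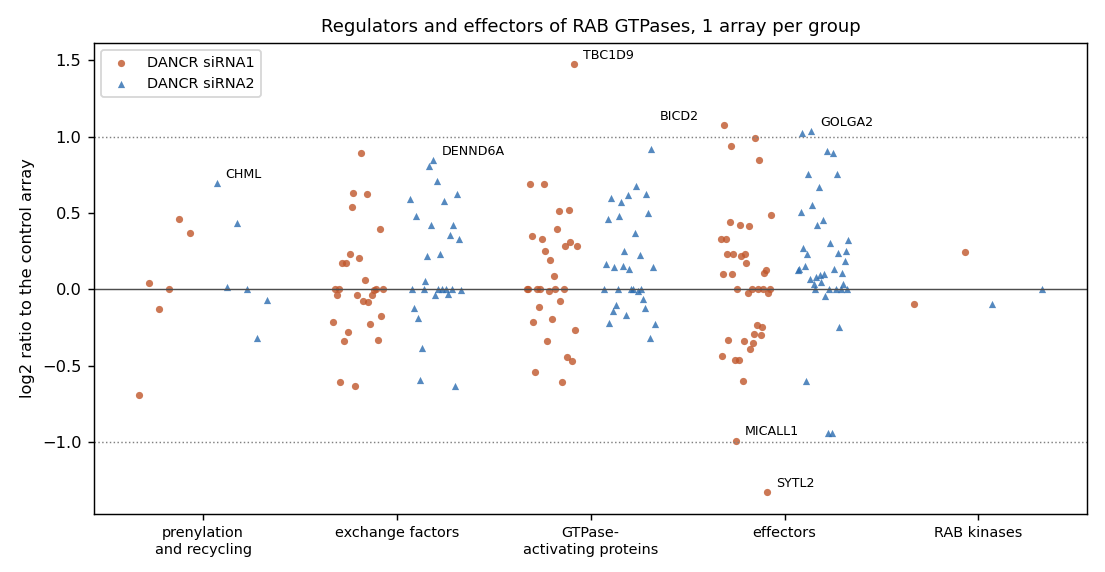
Log2 ratio to the control array (vertical axis) of the measured regulators and effectors of RABs by list, circles for DANCR siRNA1 and triangles for DANCR siRNA2, 1 array per group with no error bars. Dotted lines mark 2-fold: TBC1D9 (1.47) and BICD2 (1.07) lie above with siRNA1, GOLGA2 (1.04) and BICD2 (1.02) with siRNA2, and SYTL2 (-1.33) below with siRNA1.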

How the data were processed

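Biotin-labelled cRNA from 3 samples was hybridised to Affymetrix arrays, per the labels' protocols, and the submitters' processing notes name GCOS 1.4. The deposited intensity values are linear, 1 per probe set and array, on a common scale whose method is not given in the sources used here. Genes came from the platform annotation supplied with the series: 41097 probe sets named 1 gene, 1801 several and 11777 none here. After control probe sets were left out, 41091 remained. All 57 RAB genes matched RefSeq by gene identifier. Values were floored at the 50th percentile, and each gene took the value of its brightest measured probe set by mean. Log2 ratios were computed, with 2-fold as the call. Intensities of different probe sets were not compared as levels. No p-value was computed, since each group had 1 array, and the number of arrays limits the precision. The procedure was run on simulated data with 3-fold changes planted in all probe sets of bright genes and with little noise. That setting does not show how it performs near the floor or where probe sets differ. The members and lists were chosen with earlier results of these data known. Genes named were RAB8B and its paralogs, RAB genes 2-fold from another array, the 6 most higher and 6 most lower with both, and the 5 brightest. From each list those 2-fold with both were named, or up to 4 with the largest smaller ratio in 1 direction. Others were chosen after their values were seen. Alternatives changed the floor, the scaling, the probe set rule and the threshold. Python 3.11.15, numpy 2.4.6, pandas 2.3.3 and matplotlib 3.10.9 were used.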

Additional observations from a re-analysis of the deposited data

Results flagged for a closer look

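In 6 genes the ratios to the control pointed in opposite directions with the 2 DANCR siRNAs and the siRNA arrays were at least 2-fold apart, which the design, with 1 array per group, could not test. RAB39B was 1.53 higher on the log2 scale with siRNA1 than with siRNA2. The other 5 are regulators or effectors and were lower with siRNA1. SYTL2 differed by -1.52, DENND6A, an exchange factor, by -1.48 (intensities of 226, 146 and 406 in the order control, siRNA1, siRNA2), CHML by -1.39, MICALL1 by -1.02 and MICAL1, an actin-oxidising RAB effector, by -1.01 (37.4, 27.2 and 54.8 in that order). Such opposition occurred in 2.22% of measured RAB genes, 4.67% of regulators and effectors and 2.92% of all measured genes. In SYTL2 and MICALL1 it was slight, since their log2 ratios to the control with siRNA2 were only 0.19 and 0.03.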

How the results depend on the processing

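RAB8B was at least 2-fold lower with both siRNAs under every alternative that gave 1 value per gene, and it passed a 3-fold threshold. Its log2 ratios ran from -1.62 to -1.24 with siRNA1 and from -2.07 to -1.53 with siRNA2. Other floors left its ratios at -1.60 and -2.00, since its brightest probe set lies above them. With each probe set counted on its own, the second gave -0.88 with siRNA1, short of 2-fold, and -1.06 with siRNA2. No ratio changed sign among the single genes followed: RAB8B, RAB8A, RAB39B, RAB40B, RAB22A, RAB18, BICD2, TBC1D9, SYTL2 and GOLGA2. Other genes were not followed in this way. Without _s_at and _x_at probe sets, for example, the brightest left for RAB7A gave -0.02 and -0.05, against 0.62 and 0.51. The RAB family median with siRNA2 (0.0029) stayed near 0 but became -0.031 under quantile normalisation and -0.0081 without _s_at and _x_at probe sets. RAB8A kept its call with siRNA2 under all alternatives. Of the counts of RAB genes, those higher with siRNA1 (1) became 0 with the floor at the 70th percentile, with the median over probe sets and at 3-fold, 2 with each probe set counted on its own and 5 at 1.5-fold. Those lower with siRNA1 became 5 at 1.5-fold. Those higher with siRNA2 (0) became 1 with the median over probe sets and with each probe set counted, and 2 at 1.5-fold, and those higher with both (0) became 1 at 1.5-fold. Between the siRNAs, genes lower with siRNA1 (0) became 1 with each probe set counted and 3 at 1.5-fold, and genes higher (2) became 1 with the 70th percentile floor and with the median over probe sets, 4 at 1.5-fold and 0 at 3-fold. The same alternatives were applied to the lists and single genes after the data were seen. The count of regulators and effectors higher with both (1, BICD2) became 0 under quantile normalisation, at 3-fold and without _s_at and _x_at probe sets, which removes the BICD2 probe sets, 3 with each probe set counted and 5 at 1.5-fold. Apart from the changes that follow from another threshold or from fewer probe sets, the cause was not tested. No paired analysis was possible because each group had 1 array. Leaving out an array would leave a group with none.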
